A study of Mus musculus with 4 samples.

Results

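The genes described here are the matrix metalloproteinases (MMPs), the ADAM and ADAMTS proteases and the tissue inhibitors of metalloproteinases (TIMPs), followed through reprogramming of mouse embryonic fibroblasts (MEFs). They were chosen by gene symbol alone, and each is read by the probe set whose mean over the arrays was highest. This gave 65 of the 18193 named genes, made up of 18 MMPs, 28 ADAMs, 15 ADAMTS genes and 4 TIMPs. The cells were fixed, permeabilized, stained and sorted on the transcription factors Oct4 and Klf4 and the epithelial adhesion protein EpCAM. They fall into 4 fractions with 1 array of total RNA each, which run from Oct4-negative cells through Oct4+Klf4-negative cells and then Oct4+Klf4+EpCAM-negative cells to Oct4+Klf4+EpCAM+ cells. The series title names all of them as fractions of reprogramming MEFs. The mouse strain, the factors introduced, their delivery and the day of sorting are not given in the sources used here, nor is a shared culture for the Oct4-negative cells.

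MMPs are zinc-dependent proteases that are made as inactive proenzymes and cut collagens, other matrix proteins and surface proteins. TIMPs occupy their active site, and TIMP2 has a further role, since together with the membrane-anchored Mmp14 it presents the Mmp2 proenzyme for activation. ADAMs are membrane proteins, many of which release the outer part of growth factors, cytokines and adhesion molecules from the cell surface, while others lack a working active site and act in adhesion. ADAMTS proteases are secreted, carry thrombospondin repeats, and cut proteoglycans such as versican or process procollagens. Fibroblasts are a main source of several of these enzymes, and matrix remodelling is a part of the exchange of mesenchymal for epithelial features that accompanies reprogramming.

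The sequences before the start sites of chromosome 9 MMP genes are shown because 7 of these neighbours share a promoter layout while the array detected a level for few of them. On assembly GRCm38.p6, 10 genes of the family lie side by side on chromosome 9, from Mmp13 through Mmp12, Mmp1b, Mmp3, Mmp1a, Mmp10, Mmp8, Mmp27 and Mmp20 to Mmp7. Of these, 9 were read on the array, and Mmp3 was the only neighbour among those 9 to reach the floor used here for a measured gene. The 100 bases before an annotated start follow for the 7 that have both motifs there, and Mmp8 and Mmp12 are left out. They are from RefSeq on GRCm38.p6, with the AP-1 motif TGANTCA and the TATA motif TATAAA in capitals.
Mmp13 (chr9:7272414-7272513, plus strand): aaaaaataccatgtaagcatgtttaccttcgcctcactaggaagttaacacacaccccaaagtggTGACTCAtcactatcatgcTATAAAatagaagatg
Mmp1b (chr9:7388027-7388126, minus strand): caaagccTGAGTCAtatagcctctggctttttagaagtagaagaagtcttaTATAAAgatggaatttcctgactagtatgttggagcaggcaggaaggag
Mmp3 (chr9:7445722-7445821, plus strand): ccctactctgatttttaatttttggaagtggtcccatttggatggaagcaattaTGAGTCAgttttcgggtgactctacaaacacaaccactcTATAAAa
Mmp1a (chr9:7464041-7464140, plus strand): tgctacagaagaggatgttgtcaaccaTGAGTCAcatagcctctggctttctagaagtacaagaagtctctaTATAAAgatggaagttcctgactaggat
Mmp10 (chr9:7502242-7502341, plus strand): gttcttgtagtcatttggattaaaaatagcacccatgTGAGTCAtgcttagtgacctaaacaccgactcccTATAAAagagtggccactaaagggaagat
Mmp20 (chr9:7628131-7628230, plus strand): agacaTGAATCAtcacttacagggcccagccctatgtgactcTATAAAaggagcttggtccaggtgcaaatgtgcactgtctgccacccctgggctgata
Mmp7 (chr9:7691990-7692089, plus strand): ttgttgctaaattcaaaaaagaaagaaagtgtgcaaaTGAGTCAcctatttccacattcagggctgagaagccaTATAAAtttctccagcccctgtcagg

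In the 250 bases before the start, searched on both strands, TGANTCA was found in 8 of the 9 cluster genes, Mmp8 being the exception, and TATAAA in 7. TATAAA began 19 bases after the first base of TGANTCA in Mmp13, 34 in Mmp10, 37 in Mmp20 and Mmp7, 39 in Mmp3, 44 in Mmp1b and 45 in Mmp1a. Mmp7 and Mmp12 have 2 annotated starts each, of which 1 has TGANTCA before it. TGANTCA was present in 6.75% and TATAAA in 12.4% of all 32851 promoters of the table. The motifs do not overlap each other in the stretches printed. These genes are related copies that lie next to each other, so their promoters are not independent examples, and a match is a description and not a site of binding.

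Another layout, with GC boxes and without the AP-1 and TATA motifs, is shown by Mmp14 and Timp2, which encode the activator and the inhibitor that act together on the Mmp2 proenzyme. Capitals mark the GC box GGGCGG, read on either strand.
Mmp14 (chr14:54431498-54431597, plus strand): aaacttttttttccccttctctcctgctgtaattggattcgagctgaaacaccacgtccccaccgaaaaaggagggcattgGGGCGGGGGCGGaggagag
Timp2 (chr11:118355412-118355511, minus strand): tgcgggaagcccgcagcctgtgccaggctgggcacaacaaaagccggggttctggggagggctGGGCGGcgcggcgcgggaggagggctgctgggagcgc

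Promoters were found for 37 of the 65 members, and Mmp2 was not among them. Of 18 matched members that reached the floor, 12 had a GC box in the 250 bases before a start and 2, Mmp3 and Adam19, had the AP-1 motif. The 6 without a GC box were Mmp3, Mmp23, Adam19, Adam22, Adam23 and Adamts12. Of 19 matched members that did not, 3 had a GC box and 8 had the AP-1 motif. All of these 8 but Adam25 are related copies of the chromosome 9 cluster. A GC box was present in 32.7% of all promoters of the table. That share counts each promoter singly, while a member was counted if any of its starts had the motif.

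All levels below are log2 values, so a difference of 1 is a 2-fold difference, and the level of a probe set can be compared between arrays but not with that of another gene. The floor was the median of all values, 4.53. The background ceiling was 2.94, reached by the brightest of 27 bacterial control probe sets, which have no counterpart in mouse cells and stayed dim. A gene was called higher or lower in a comparison when the 2 levels were 2-fold or more apart and the brighter of them reached the floor. Where the dimmer of 2 levels did not exceed the ceiling, the ceiling took its place and the fold is written with "at least". With 1 array per fraction no difference has a replicate check and no test was possible. Within a fraction, fewer cells expressing a gene and less of its RNA per cell cannot be told apart.

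The arrays had median levels from 4.49 to 4.55. The transcript of each sorted protein was higher past its own gate, with Pou5f1, which encodes Oct4, at 7.59 in the Oct4-negative array and from 11.48 to 11.70 in the others. The Klf4 transcript had levels of 7.3, 6.2, 10.2 and 10.6, so its lowest was not in the Oct4-negative array. Epcam had 4.63, 5.20, 6.54 and 9.52, and was thus higher at the earlier gates too. Of 10 fibroblast markers 9 reached the floor, and the list had a summed linear level of 17460, 9956, 5386 and 2233 through the gates, with 9 members lower at the end than at the start. The sum for 12 keratinocyte markers, of which 9 reached the floor, went the other way, from 358 to 422, 3888 and 6189. Of them 6 were higher and 0 lower at the end than at the start, and the rest were not called between the ends. Krtdap, at 6.22, 7.15, 11.30 and 11.75, contributed most to the sum in the Klf4-positive arrays. Of all named genes, 7.46% were higher and 6.77% lower between the ends. The difference between the 3′ and 5′ control probe sets of Gapdh, a sign of RNA integrity and amplification, was largest in the Oct4+Klf4-negative array, at 1.30 against 0.97 to 1.04 elsewhere. The part of these shifts in the results below was not tested.

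More members were lower than higher along the series. Of the 65 members, 31 reached the floor on at least 1 array, 34 did not, and 18 lay at or below the background ceiling on all 4 arrays. Between the ends of the series, 16 members were lower in the Oct4+Klf4+EpCAM+ array than in the Oct4-negative one, against a background of 6.77% of all named genes, and 3 were higher, against 7.46%. The 16 made up 24.6% of the members and the 3 made up 4.62%. The median difference over all members was -0.15, and that over all named genes was 0.03.

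At the Oct4 step, from Oct4-negative to Oct4+Klf4-negative, 9 members were lower (13.8%) and 3 higher (4.62%), where 3.04% and 2.25% of all named genes were. At the Klf4 step, which leads on to the Oct4+Klf4+EpCAM-negative array, 8 were lower (12.3%) and 4 higher (6.15%), beside 4.32% and 5.3% of all genes. At the EpCAM step, which leads to the Oct4+Klf4+EpCAM+ array, 4 were lower (6.15%) and 1 higher (1.54%), beside 1.12% and 1.95%. Neighbouring comparisons share an array, so their counts are not independent. The medians over all members were -0.08, -0.09 and -0.08 at the 3 steps, beside 0.00, 0.01 and 0.00 over all named genes.

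**Figure D1:**
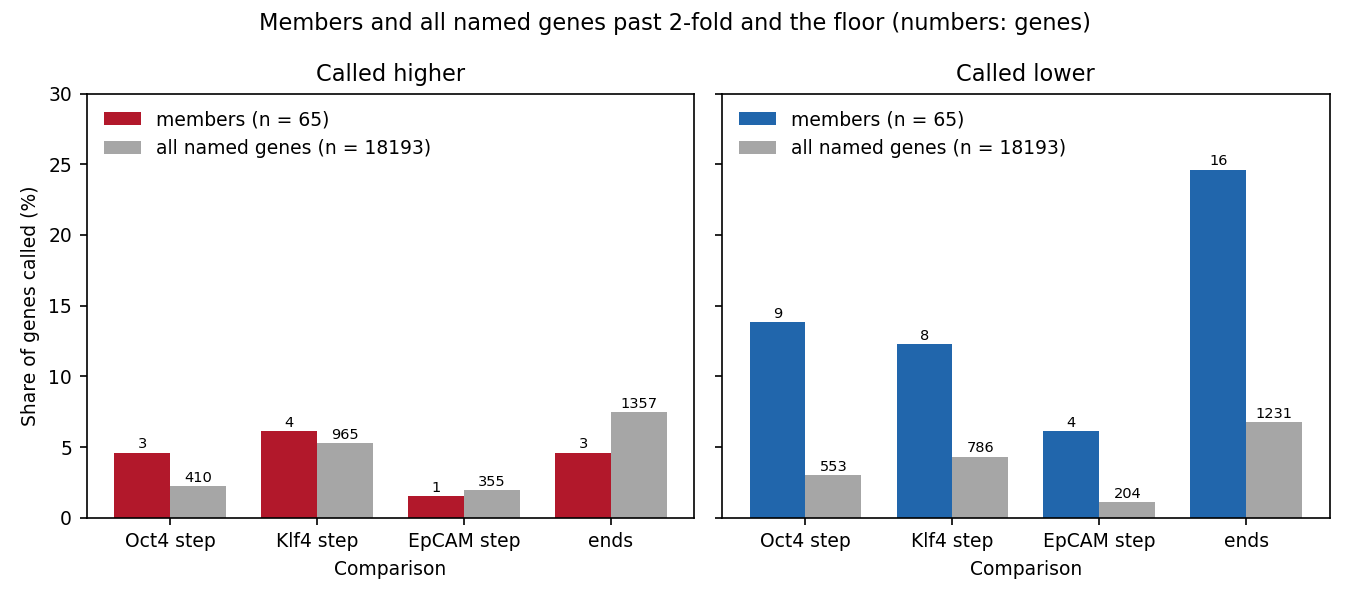
Share of genes called higher (left) and lower (right) in each comparison, for the 65 members (coloured bars) and all 18193 named genes (grey bars), with the number of genes above each bar. The share called lower was 24.6% of members and 6.77% of all genes between the ends, while the shares called higher were 4.62% and 7.46%.

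In all, 23 members (35.4%) were called in at least 1 comparison, higher or lower, where 17.7% of all named genes were, and 42 were called in none. Of the 31 that reached the floor, 14 had their highest level on the Oct4-negative array, 7 on each of the middle arrays and 3 on the Oct4+Klf4+EpCAM+ array. Among the 11429 named genes that reached the floor these shares were 24.3%, 25.1%, 16.9% and 33.7% in the same order, and among the members 45.2%, 22.6%, 22.6% and 9.68%.

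**Figure D2:**
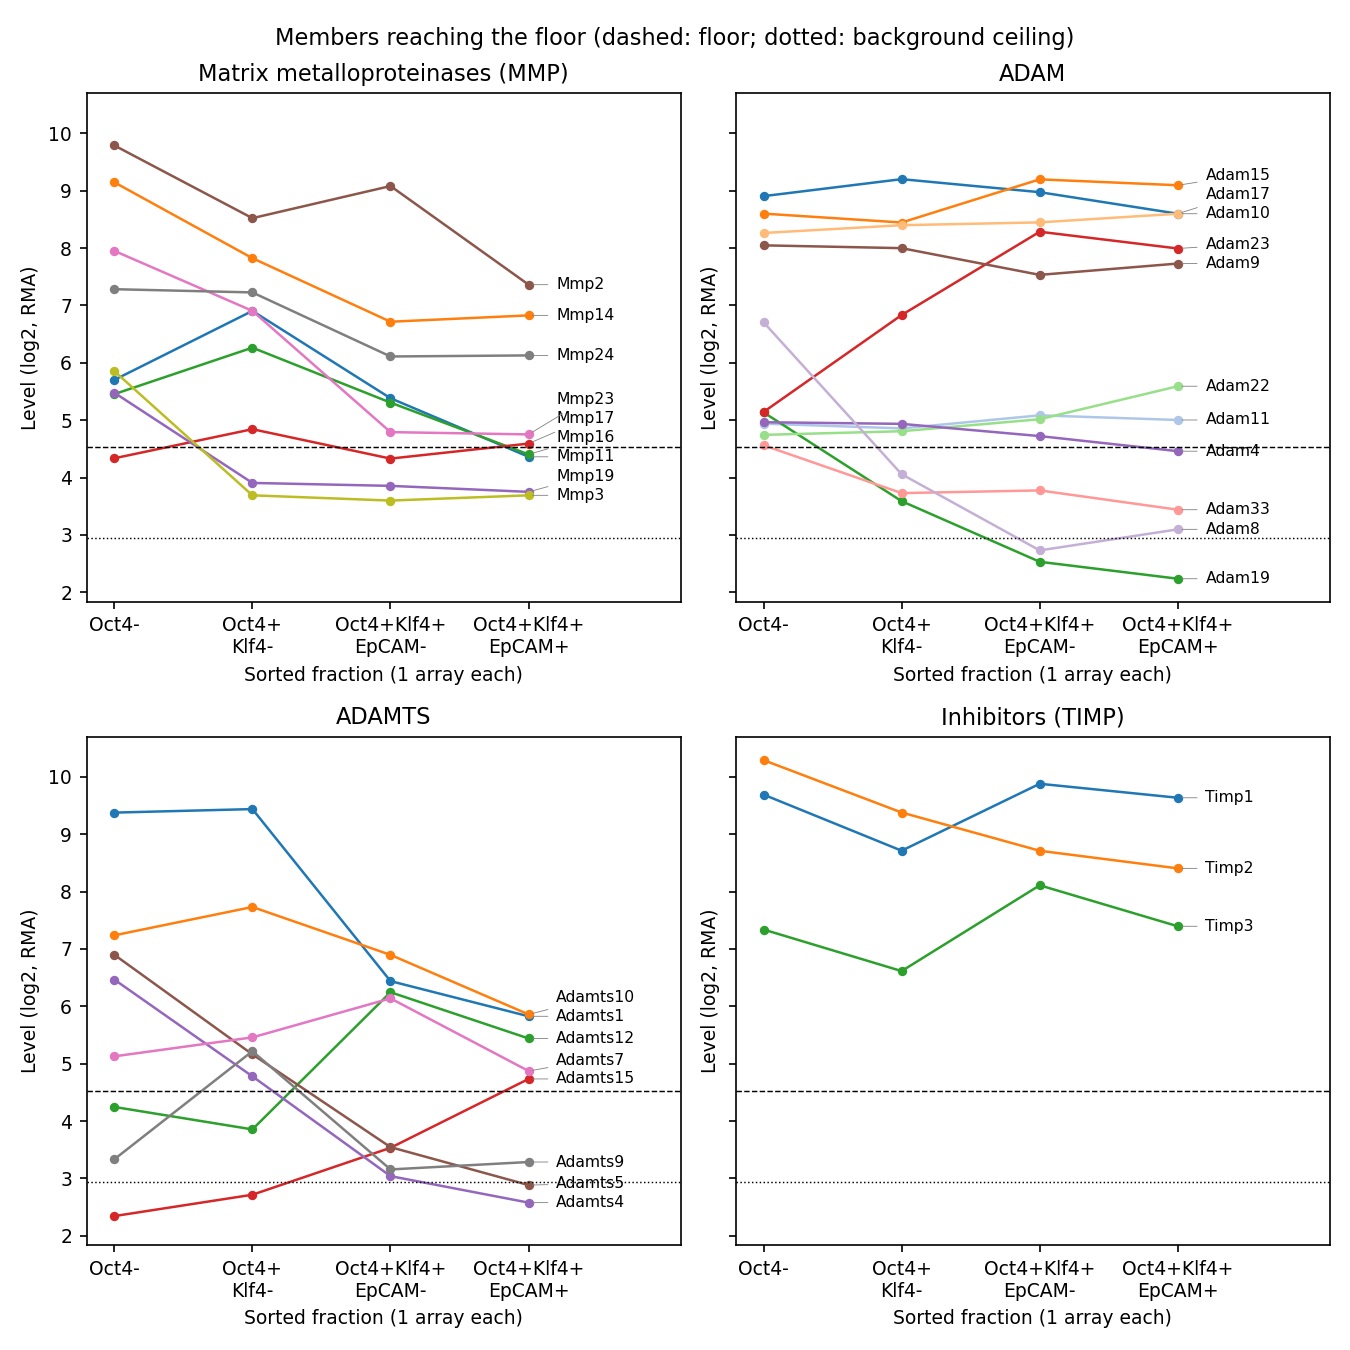
Level (log2) of each of the 31 members that reached the floor, on each of the 4 arrays, by family; a line joins the points of a gene, the dashed line is the floor (4.53) and the dotted line the background ceiling (2.94). Mmp23, Adamts4, Adamts5 and Timp2 descend from left to right, Adam23 ascends up to the third array, and Mmp11 and Adamts9 peak on the Oct4+Klf4-negative array.

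The MMPs were the family with the largest share of lower members between the ends, 8 of 18 (44.4%) with 0 higher. Of all named genes, 6.77% were lower and 7.46% higher. The 8 were among the 9 MMPs that reached the floor. Mmp14, the membrane-anchored collagenase of fibroblasts, had levels of 9.15, 7.82, 6.72 and 6.83 through the gates. It was therefore highest in the Oct4-negative array and lowest in the Klf4-positive ones, 2.50-fold lower at the Oct4 step and 2.16-fold lower at the Klf4 step. Its other probe sets gave 7.88, 6.71, 5.31 and 5.42, and 7.40, 6.25, 5.19 and 4.98. All 3 probe sets thus placed the Klf4-positive arrays below the others.

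Mmp2, the gelatinase whose proenzyme Mmp14 activates, had levels of 9.79, 8.52, 9.08 and 7.36. It did not descend at every gate, since the Oct4+Klf4+EpCAM-negative level lay above the Oct4+Klf4-negative one by 0.56. It was 2.41-fold lower at the Oct4 step and 3.29-fold lower at the EpCAM step, and 5.38-fold lower between the ends. Its other probe set repeated this order, with 8.92, 7.60, 8.02 and 6.31. Mmp9, the other gelatinase, stayed between 3.03 and 3.33 and did not reach the floor.

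Mmp3, the stromelysin that cuts proteoglycans, fibronectin and other MMP proenzymes, had levels of 5.86, 3.69, 3.60 and 3.69. It was thus above the floor in the Oct4-negative array alone, 4.48-fold above the Oct4+Klf4-negative one, and differed by no more than 0.09 between the Oct4-positive arrays. Its chromosome 9 neighbours gave no such difference. The interstitial collagenase genes Mmp1a, Mmp1b, Mmp8 and Mmp13 had no level above 2.21 and Mmp12, the elastase of macrophages, none above 1.99, all below the background ceiling. Mmp10, another stromelysin, reached at most 3.09, Mmp7, or matrilysin, 3.15 and Mmp20, the enamel protease, 3.43. Mmp1a and Mmp1b are related copies, and whether a probe set of either reads the other was not tested.

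Mmp19, a secreted MMP without a close relative in the family, had levels of 5.48, 3.91, 3.86 and 3.75, 2.97-fold lower at the Oct4 step. It shared with Mmp3 a level above the floor in the Oct4-negative array alone. Its other probe set gave 4.88, 2.65, 2.74 and 2.85. Mmp23, a small membrane-bound MMP, had levels of 7.95, 6.91, 4.79 and 4.75. It was 2.06-fold lower at the Oct4 step and 4.33-fold lower at the Klf4 step, and level between the EpCAM-negative and EpCAM-positive arrays. Its other probe set gave 5.37, 4.52, 3.35 and 3.67, which puts the difference at the Oct4 step below the 2-fold rule.

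Mmp24, a membrane-anchored MMP known from neurons, had levels of 7.28, 7.23, 6.11 and 6.13. Both Klf4-positive levels lay below both others, 2.17-fold at the Klf4 step and 2.23-fold between the ends. The other probe sets of Mmp24 did not reach the floor, and on the mean of all it was not called. Mmp17, anchored to the membrane by a lipid, stayed between 4.33 and 4.84 and was called in no comparison.

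Mmp11 and Mmp16 had their highest level in the Oct4+Klf4-negative array. Mmp11, also called stromelysin-3, is known from stromal fibroblasts and is activated inside the cell by furin. It had levels of 5.70, 6.90, 5.38 and 4.36, which is 2.30-fold higher at the Oct4 step, 2.87-fold lower at the Klf4 step and 2.03-fold lower at the EpCAM step. Mmp16, a membrane-anchored relative of Mmp14, had levels of 5.45, 6.26, 5.31 and 4.40. No step of its brightest probe set reached 2-fold, and between the ends it was 2.07-fold lower. Its other probe sets, at 4.83, 5.70, 4.70 and 3.84, at 4.08, 5.63, 4.28 and 3.81, and at 3.46, 4.86, 3.81 and 3.14, were also highest in the Oct4+Klf4-negative array. On the probe sets without a mark for several transcripts, and on the mean of all, the difference of Mmp16 between the ends stayed below the 2-fold rule. On that mean its Oct4 step (1.16) and its Klf4 step (-1.09) passed the rule.

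**Figure D3:**
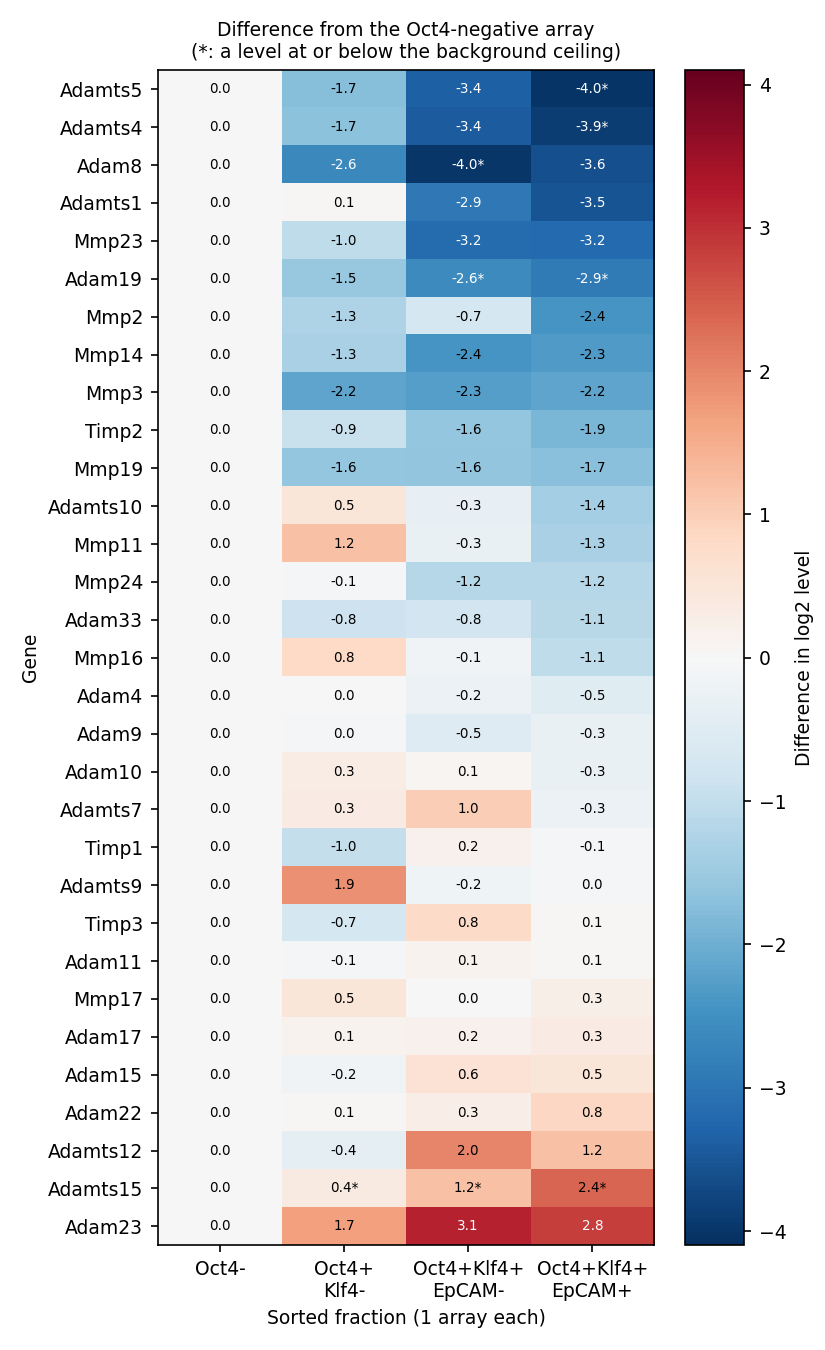
Difference in log2 level from the Oct4-negative array (first column, 0 by construction) for the 31 members that reached the floor, ordered by the Oct4+Klf4+EpCAM+ array; blue is lower and red higher, each cell gives its value, and an asterisk marks a value in which 1 of the levels, or both, lay at or below the background ceiling, so that its size and its place in the order are not measured. Adamts5 and Adamts4, at least 15.5-fold and 11.5-fold lower, stand at the lower end with Adam8 (-3.6) and Adamts1 (-3.5), and Adam23 (2.8), Adamts15 (at least 3.47-fold higher) and Adamts12 (1.2) at the upper end.

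Among the ADAMs, the general surface sheddases were called in no comparison, while 3 others were lower at the end than at the start. The 3 made up 10.7% of the 28 ADAMs, beside 6.77% of all named genes. Adam10, which cuts Notch and cadherins, had levels of 8.90, 9.20, 8.97 and 8.60. Adam17, which releases tumour necrosis factor and ligands of the epidermal growth factor receptor, had 8.26, 8.40, 8.45 and 8.60. Adam9, another sheddase, was highest in the Oct4-negative array, at 8.05, and lowest in Oct4+Klf4+EpCAM-negative cells, at 7.53. Adam15, known from cell contacts, had 8.60, 8.44, 9.20 and 9.09. None of these 4 was called in a comparison, and the largest step among them was that of Adam15 at the Klf4 gate, a difference of 0.75.

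Adam8, known from leukocytes and activated cells, had levels of 6.71, 4.06, 2.73 and 3.10. It was above the floor in the Oct4-negative array alone, 6.27-fold above the Oct4+Klf4-negative level and 12.2-fold above the Oct4+Klf4+EpCAM+ level, and has 1 probe set. Of 14 macrophage and leukocyte markers 4 reached the floor, and Adgre1, Itgam, Fcgr1, Tyrobp and S100a8 were at or below the ceiling on every array. At the Oct4 step 2 of the 14 were lower, as Adam8 was, and 0 higher, beside 3.04% and 2.25% of all named genes. Cd68, which encodes a lysosomal protein of macrophages, had levels of 7.76, 5.95, 6.32 and 6.48, 3.52-fold lower at the Oct4 step and 2.43-fold lower between the ends. Cd14, a receptor subunit for bacterial lipopolysaccharide, had 4.63, 3.21, 4.85 and 4.69, 2.68-fold lower at the Oct4 step and 3.13-fold higher at the Klf4 step. The summed linear level of the list, 348, 180, 923 and 549 through the gates, was set in the Klf4-positive arrays by Laptm5, at 3.81, 4.69, 9.50 and 8.38. The part of leukocyte transcripts in the difference of Adam8 was not tested.

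Adam19, a sheddase of neuregulins expressed in mesenchyme, had levels of 5.14, 3.59, 2.53 and 2.24. It was 2.92-fold lower at the Oct4 step and at least 4.58-fold lower between the ends, with both Klf4-positive levels below the background ceiling. Its other probe set gave 4.61, 3.23, 2.58 and 2.73. Adam12, a mesenchymal ADAM close to it in sequence, did not reach the floor by its brightest probe set, at 4.12, 2.64, 2.43 and 2.82, and so was not called. Its other probe set gave 4.64, 2.27, 2.19 and 2.27, which passes the floor in the Oct4-negative array. Adam33, of smooth muscle and mesenchyme, had 4.56, 3.73, 3.78 and 3.44 and was 2.18-fold lower between the ends, starting just above the floor. On the mean of its probe sets it was 2.49-fold lower and on the unmarked one alone 2.86-fold lower, and it was not called there because the Oct4-negative level, 4.32 and 4.07, lay below the floor.

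Adam23, an ADAM without a working protease site that acts in adhesion and binds the neuronal protein Lgi1, was the only ADAM called higher in any of the 4 comparisons. It had levels of 5.14, 6.83, 8.28 and 7.99, 3.23-fold higher at the Oct4 step, 2.73-fold higher at the Klf4 step and 7.20-fold higher between the ends. Its other probe sets gave 4.42, 5.17, 6.83 and 6.68, and 3.76, 3.94, 4.54 and 4.97, so that on each of the 3 the Oct4-negative level was the lowest. On their mean the Oct4 step stayed below the 2-fold rule. The list of 12 neural markers, all reaching the floor, had a summed linear level of 646, 3660, 4585 and 4326. Of them 9 were higher and 0 lower at the Oct4 step, 4 higher and 4 lower at the Klf4 step, and 7 higher and 1 lower between the ends. The shares of all named genes, in the same order, were 2.25% and 3.04%, 5.3% and 4.32%, and 7.46% and 6.77%. The 4 lower at the Klf4 step, where Adam23 was higher, were the neuronal cytoskeleton and growth cone genes Map2, Gap43, Nefl and Nefm. The part of neural transcripts in the differences of Adam23 was not tested. Adam22, its relative and likewise a receptor for Lgi1, had 4.74, 4.81, 5.02 and 5.59 by its brightest probe set, below the 2-fold rule in every comparison. Its other probe set gave 3.96, 4.53, 5.48 and 6.17, a difference of 2.21 between the ends. Adam11, the third of this kind, stayed between 4.86 and 5.08.

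The ADAMs of testis and epididymis, known for their part in sperm maturation and binding to the egg, were near background. Of 16 on the array, Adam4 alone reached the floor, at 4.96, 4.94, 4.72 and 4.46, and none was called in any of the 4 comparisons. Of 8 germ cell markers of testis, 1 reached the floor, the protamine gene Prm1 at 6.71 to 7.12, and Acr, Zpbp, Ddx4 and Dazl were at or below the ceiling on all arrays. The summed linear level of those markers lay between 159 and 194.

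In the ADAMTS family the proteases of versican and aggrecan, called hyalectanases, took several courses. By the probe set used, 3 of them, Adamts5, Adamts4 and Adamts1, were more than 10-fold lower between the ends. Adamts5, a main aggrecanase of cartilage, had levels of 6.90, 5.16, 3.55 and 2.89. Each array was lower than the one before it, by 3.33-fold at the Oct4 step and 3.07-fold at the Klf4 step, and the ends differed by at least 15.5-fold. Its other probe sets that reached the floor were also highest in the Oct4-negative array, with 5.28, 3.92, 3.24 and 2.87, and a shallower 5.11, 4.33, 4.03 and 4.05. On the mean of all its probe sets the steps were 1.96-fold and 1.66-fold, and neither was called. On that mean the ends differed by -1.96 on the log2 scale, less than by the probe set used.

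Adamts4, the other aggrecanase induced in inflammation, had levels of 6.47, 4.78, 3.04 and 2.58. Its course resembled that of Adamts5, 3.22-fold lower at the Oct4 step, 3.34-fold lower at the Klf4 step and at least 11.5-fold lower between the ends. The second probe set gave 5.69, 4.22, 3.02 and 2.96, a log2 difference of -2.73 between the ends, and the mean of both gave -3.31. On that mean the Klf4 step was 2.78-fold, not called because its brighter level, 4.50, lay below the floor. Adamts1, a versican protease needed for ovulation, had levels of 9.38, 9.44, 6.44 and 5.83. It differed from the other 2 in that the Oct4-negative and Oct4+Klf4-negative levels lay within 0.06 of each other, and the Klf4 step was 7.99-fold lower. Adamts1 and Adamts5 are neighbours on chromosome 16, with differences at the Oct4 step of 0.06 and -1.74.

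Adamts9, a versican protease of development, had levels of 3.33, 5.22, 3.16 and 3.29 and was above the floor in the Oct4+Klf4-negative array alone. It was 3.69-fold higher at the Oct4 step and 4.17-fold lower at the Klf4 step. A dimmer probe set by its mean gave 2.24, 6.70, 2.26 and 1.50, a larger difference in the same array, and another gave 2.34, 4.20, 2.65 and 1.86. All 3 thus had their highest level in that fraction. Adamts15 ran the other way, with levels of 2.34, 2.72, 3.53 and 4.73, passing the floor in the Oct4+Klf4+EpCAM+ array alone. It was the 1 member called higher at the EpCAM step, 2.30-fold, and was at least 3.47-fold higher between the ends. Adamts8 and Adamts20 did not exceed 2.53.

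Versican itself (Vcan), the matrix proteoglycan these enzymes cut, had levels of 9.70, 9.58, 7.23 and 5.49. It was 5.11-fold lower at the Klf4 step, where Adamts1, Adamts4, Adamts5 and Adamts9 were lower too, and 18.5-fold lower between the ends. Of the 5 listed substrates of the family, 2 reached the floor, and 1, Vcan, was called. Of all named genes, 17.7% were called in at least 1 comparison. Cartilage and bone markers, of which 3 of 8 reached the floor, had a summed linear level of 142, 351, 197 and 219. Alpl, at 4.68, 8.08, 6.83 and 7.15, contributed most to that sum in the Oct4-positive arrays. Between the ends 1 of the 8, Alpl, was higher and 1, Sox9, lower, beside 7.46% and 6.77% of all named genes.

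Of the other ADAMTS genes, Adamts12, a protease of the cartilage protein COMP, had levels of 4.25, 3.86, 6.25 and 5.44. Both Klf4-positive levels lay above both others, with a 5.24-fold difference at the Klf4 step, and between the ends it was 2.29-fold higher. Its second probe set did not reach the floor but had the same order, with 2.16, 2.12, 3.26 and 2.79, and on the mean of both the difference between the ends was not called. Adamts7, which also cuts COMP, had 5.13, 5.46, 6.14 and 4.87, with its peak in Oct4+Klf4+EpCAM-negative cells and 2.40-fold lower at the EpCAM step. Adamts10, which binds fibrillin, had 7.24, 7.73, 6.90 and 5.86, 2.05-fold lower at the EpCAM step and 2.60-fold lower between the ends. Its second probe set gave 6.72, 6.83, 6.30 and 5.80, below the 2-fold rule. Adamts3, which trims procollagen, stayed between 3.38 and 3.72 and below the floor.

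The inhibitors did not follow a common course. Timp2 had levels of 10.29, 9.38, 8.71 and 8.40, each array lower than the one before. It was 3.70-fold lower between the ends, although no step of this brightest probe set reached 2-fold. Its 5 other probe sets ran from a highest level in the Oct4-negative array, between 7.63 and 9.91, to a lowest in the Oct4+Klf4+EpCAM+ array, between 5.15 and 7.82. At the Oct4 step they differed by -1.08, -0.84, -1.20, -1.33 and -1.27. On the mean of all Timp2 probe sets the Oct4 step was -1.10, past the 2-fold rule. Timp2 and its partners Mmp14 and Mmp2 were thus all lower between the ends, by 1.89, 2.32 and 2.43 on the log2 scale.

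Timp1, a broad MMP inhibitor secreted by fibroblasts, had levels of 9.69, 8.71, 9.88 and 9.63. It was lowest in the Oct4+Klf4-negative array and 2.24-fold higher at the Klf4 step, and its end levels differed by 0.06. Timp3, which is held in the matrix and also inhibits Adam17 and the aggrecanases, had levels of 7.34, 6.61, 8.11 and 7.39. It too was lowest in the Oct4+Klf4-negative array, and was 2.82-fold higher at the Klf4 step. The other 3 probe sets of Timp3 gave 6.59, 5.90, 7.47 and 6.62, then 5.67, 5.36, 7.17 and 6.26, then 5.53, 4.12, 6.02 and 5.47. The Oct4+Klf4-negative level was the lowest of each. That array also had the largest 3′ to 5′ difference of Gapdh, and whether this bears on Timp1 and Timp3 was not tested. Timp4 stayed between 3.10 and 3.33, below the floor.

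**Figure D4:**
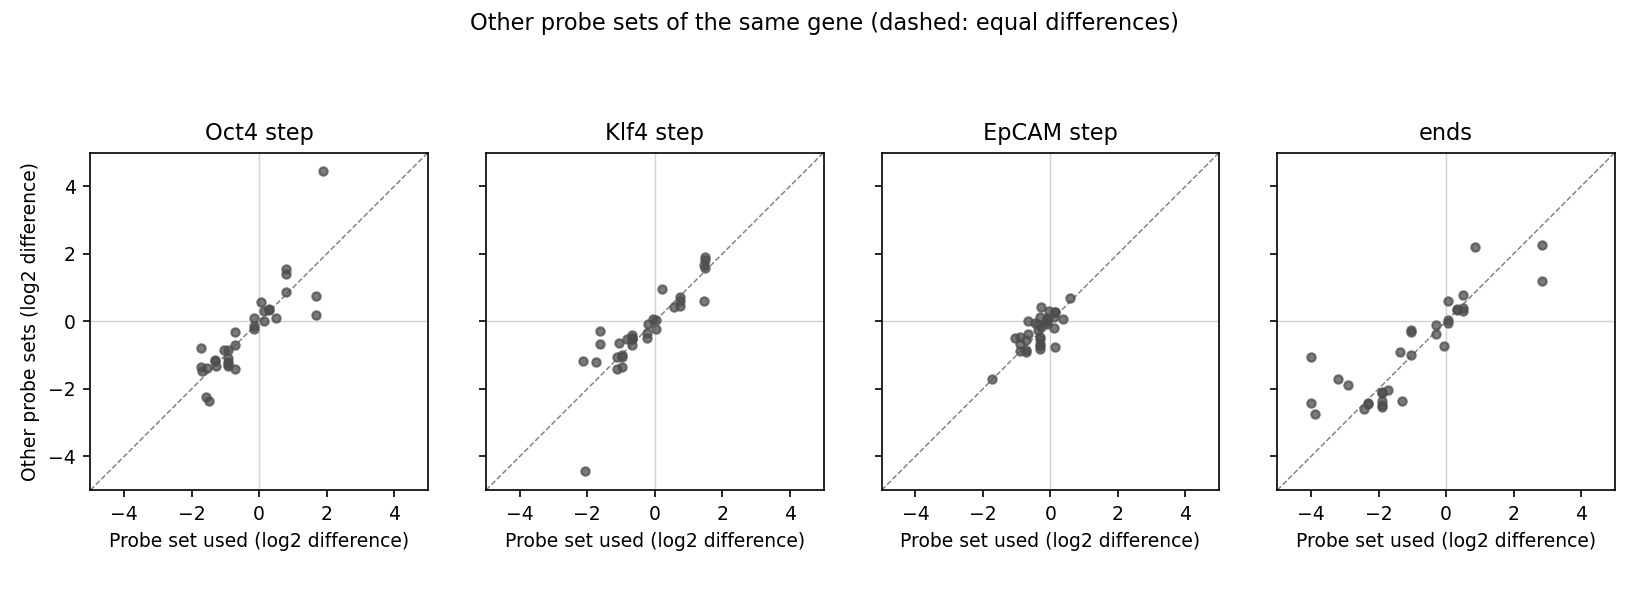
Difference in log2 level given by the other probe sets of a member (vertical axis, those reaching the floor) against the difference given by the probe set used for it (horizontal axis), in each comparison; each point is 1 probe set and the dashed line marks equal differences. Between the ends, 18 other probe sets of called members reached the floor on an array compared. All 18 lie on the side of the probe set used, 16 of them past 2-fold. Plotted but not among the 18 are Mmp16 probe sets that reached the floor on the Oct4+Klf4-negative array alone, at -0.26 and -0.32.

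Other probe sets of the same gene were the check on single readings that these arrays allowed. At the Oct4 step, 9 of the 12 called members had another probe set reaching the floor on the arrays compared, and all 11 such probe sets went the same way, 8 past 2-fold. At the Klf4 step it was 8 of 8, with 7 past 2-fold, and at the EpCAM step 2 of 2, with 1 past 2-fold. Probe sets of a gene share the RNA of the array, so they say nothing of variation between cultures or sorts. Mmp3, Mmp11, Adam8, Adamts1, Adamts7, Adamts15 and Timp1 rest on 1 probe set each.

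Genes that act on these proteases were read from lists outside the families. Reck, a membrane-anchored inhibitor of MMPs, had levels of 5.41, 5.30, 4.77 and 3.60 and was 2.25-fold lower at the EpCAM step. It thus reached the floor on all but the Oct4+Klf4+EpCAM+ array. Tspan15, a tetraspanin partner of Adam10, had 3.83, 4.09, 5.36 and 6.35, higher at every gate and 5.75-fold higher between the ends, while Adam10 was called in no comparison. Rhbdf2, an iRhom that carries Adam17 to the cell surface, had 6.40, 6.75, 6.72 and 7.43, 2.03-fold higher between the ends. In the list of 21 such regulators, 14 reached the floor, 2 were higher and 3 lower between the ends, and the median difference was -0.22. Of them, 0 were higher and 1 lower at the Oct4 step, 1 higher and 1 lower at the Klf4 step, and 0 higher and 4 lower at the EpCAM step, the last being Reck, Adamtsl4, Spock2 and Sparc.

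Proprotein convertases cut the proenzyme part from membrane-anchored MMPs and from ADAMs. All 5 reached the floor, and 1, Pcsk5, was called, at the Oct4 and Klf4 steps, where 17.7% of all named genes were called in at least 1 comparison. The levels of Pcsk5 were 2.60, 7.45, 2.64 and 2.34, above the floor in the Oct4+Klf4-negative array alone, as for Adamts9.

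The plasminogen activators start the plasmin cascade, which activates several MMP proenzymes. Plau, the urokinase gene, had levels of 8.21, 5.73, 4.22 and 3.34, lower at every gate and 29.2-fold lower between the ends. Plat, the tissue type activator, had 6.14, 3.10, 2.42 and 2.40, above the floor in the Oct4-negative array alone. Plaur, the urokinase receptor, had 7.65, 5.51, 7.63 and 8.22, with its lowest level in the Oct4+Klf4-negative array, as for Timp1 and Timp3. Of 7 genes of this list on the array, 4 reached the floor, and 1 was higher and 2 were lower between the ends. Of all named genes, 7.46% were higher and 6.77% lower there.

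Among astacin proteases and their enhancers, which process procollagens, 4 of 7 reached the floor. Tll1 had levels of 3.89, 7.24, 6.19 and 4.76, highest in the Oct4+Klf4-negative array and 10.2-fold above the Oct4-negative level. Bmp1 had 7.12, 6.43, 5.91 and 5.88, 2.37-fold lower between the ends, and Pcolce2 had 8.25, 8.47, 10.13 and 9.50, 2.38-fold higher. Of 9 other matrix proteases and inhibitors, 5 reached the floor, and 3 were lower and 1 higher between the ends, beside 6.77% and 7.46% of all named genes. Htra1, a secreted serine protease, had 8.52, 9.69, 7.33 and 6.34, highest in the Oct4+Klf4-negative array, and its relative Htra3 had 3.06, 2.73, 4.20 and 5.56, highest in the Oct4+Klf4+EpCAM+ array. The lysosomal proteases Ctsb and Ctsl were 2.95-fold and 2.46-fold lower between the ends. Endothelial markers, of which 4 of 10 reached the floor, had a summed linear level of 289, 411, 905 and 899. Tek, at 3.33, 7.49, 9.22 and 8.74, contributed most to that sum in the Klf4-positive arrays. Of the 10, 3 were higher and 1, Egfl7, was lower between the ends.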

How the data were processed

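RNA of 4 sorted fractions, 1 array each, was extracted with the RecoverAll kit and amplified with the Ovation Pico WTA kit, per the labels' protocols. The deposited values are log2 levels per probe set from robust multi-array average (RMA) processing by the authors, per the submitters' processing notes. They came from an RMA version not given in the sources used here. Fixation and amplification precede the array and can change a level according to a transcript's integrity.

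Of 45037 probe sets besides 64 controls, 34945 had 1 gene symbol in the platform annotation and represent 18193 genes. The 932 with several symbols and the 9160 without one were not used. All 65 members had a gene identifier in RefSeq (GRCm38.p6), used for names and neighbours, and 0 symbols changed. Every member, and of the other lists those called, could be named. Probe sets of Mmp27, Mmp15 and other family genes outside the 65 were not analysed here.

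Differences and folds were computed in Python 3.11.15 with pandas 2.3.3, and the 2-fold rule was tested on simulated data. Variation between cultures or sorts is not known from 1 array per fraction, and the rule was not tested against it. Scatter was gauged by the SD between the probe sets of a gene, whose median over 5709 genes was 0.167, 0.172, 0.122 and 0.177 for the Oct4, Klf4 and EpCAM steps and the ends. The members, the lists and the rules were chosen with earlier results of these data known. Alternatives varied the probe set, the fold, the floor and the centring. Precision is limited by having 1 array per fraction.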

Additional observations from a re-analysis of the deposited data

How the results depend on the processing

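Counts and medians over the members were recomputed with other probe sets, folds, floors and centring. With a 3-fold rule, 4 members were lower at the Oct4 step (9 at 2-fold), 1 higher and 5 lower at the Klf4 step (4 and 8), and 0 higher and 1 lower at the EpCAM step (1 and 4). Under that rule, 1.53% of all named genes were lower at the Oct4 step. At the Klf4 step 3.01% of them were higher and 2.11% lower, and at the EpCAM step 0.824% and 0.412%. With a floor of 6.87, the 75th percentile of all values, 1 was higher and 4 lower at the Oct4 step, 5 lower at the Klf4 step, 0 higher and 2 lower at the EpCAM step, and 1 higher and 8 lower between the ends (3 and 16). With it, 1.05% of all named genes were higher and 1.67% lower at the Oct4 step, and 2.44% lower at the Klf4 step. At the EpCAM step 0.89% of them were higher and 0.324% lower, and between the ends 4.38% and 4.02%. The median over the members reaching that floor was -0.57 at the Klf4 step, -0.30 at the EpCAM step and -1.25 between the ends, where fewer genes enter. With the floor at the background ceiling, 2 were higher at the EpCAM step, Adamts15 and Mmp20 (a difference of 1.02, from 2.41 to 3.43). Of all named genes, 2.18% were higher there. The other counts stayed within 1.5 times the value reported, and the other medians within the probe set scatter. In each of the 6 alternative settings, more members were lower than higher in each of the 4 comparisons. At the Oct4 step the same was true of all named genes in each setting. Between the ends it was true of them with centred differences alone (7.39% lower, 6.91% higher). At the Klf4 and EpCAM steps more of all named genes were higher than lower in each setting. None of the 48 called differences of named members changed sign with the mean of all probe sets, with unmarked probe sets or with centred differences. On the mean of all probe sets 11 were no longer called, Adam23, Adamts5 and Mmp23 at the Oct4 step, Adamts4, Adamts5 and Mmp24 at the Klf4 step, Adamts10 at the EpCAM step, and Adam33, Adamts12, Mmp16 and Mmp24 between the ends. Of these, 9 were between 1.26-fold and 1.96-fold, while Adamts4 (2.78-fold) and Adam33 (2.49-fold) stayed past 2-fold with the brighter level below the floor. Among the members called in at least 1 comparison, that mean also added calls. These were Timp2 (-1.10) and Mmp16 (1.16) at the Oct4 step, and Mmp16 (-1.09) at the Klf4 step. On unmarked probe sets 4 were no longer called, Mmp23 at the Oct4 and Klf4 steps and Adam33 and Mmp16 between the ends. Of these, Mmp23 at the Klf4 step (2.25-fold) and Adam33 (2.86-fold) stayed past 2-fold with the brighter level below the floor, and the other 2 were 1.80-fold and 1.99-fold. With centred differences all 48 were still called. The cause of the other changes was not tested. No paired analysis was possible because each fraction has 1 array, and for the same reason no array could be left out. Levels near the background ceiling, such as those of the chromosome 9 MMPs other than Mmp3, are a weak basis for a difference.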
